A study of Mus musculus with 11 samples.

Results

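The 9 genes described here encode the enzymes that make phosphatidylcholine and phosphatidylethanolamine, the main membrane phospholipids of mammalian cells. They were taken by name from a deposited table of 55487 genes, and all 9 were found: Chka, Chkb, Etnk1, Pcyt1a, Pcyt1b, Pcyt2, Chpt1, Cept1 and Pemt. The set was drawn up with a low level of Pcyt1a in shFgf21 sorted cells already known, so that contrast is given below as a description, with no p-value. Each gene was detected in all 11 libraries, from at least 23 counts for Pemt to at least 1274 for Chka.

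Both lipids are built along the Kennedy pathway. A kinase phosphorylates choline or ethanolamine, a cytidylyl transferase couples the product to CTP, and a phosphotransferase moves the head group onto diacylglycerol. The coupling to CTP is usually the rate-limiting step, and the alpha form of the phosphocholine enzyme, encoded by Pcyt1a, is switched on when it binds membranes poor in phosphatidylcholine. In the liver, Pemt also makes phosphatidylcholine by methylating phosphatidylethanolamine. Phosphatidylcholine synthesis is tied to cholesterol in macrophages: mouse macrophages without Pcyt1a tolerate loading with free cholesterol poorly.

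Bulk RNA was sequenced from MC38, a mouse colon carcinoma line, and from cells sorted as T cells out of MC38 tumours. The tumour cells carried a short hairpin against Fgf21 (shFgf21, labelled as an FGF21 knockdown) or a control hairpin (shNC, labelled WT). There were 2 shFgf21 and 3 shNC libraries of sorted cells, and 3 shFgf21 and 3 shNC libraries labelled as tumours, of MC38 and of mesenchymal cell type. Mouse strain, age and days of growth are not given in the labels, and the sorted libraries have titles that join several numbers, without saying how animals were pooled. The genotype label of sorted shFgf21 replicate 2 names FGF22, while its title follows that of replicate 1, and it was kept in the group. Sorted shNC libraries were grouped by their WT label. The titles of replicates 1 and 2 begin with N, and those of replicate 3 and the shNC tumours with NC. Whether this marks a different origin is not given. Nothing says that replicates were separate animals or cultures, so the p-values below speak only of the scatter among libraries, whose source may be technical.

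Libraries held 15257217 to 16184050 counts in shFgf21 and 14944013 to 16654736 in shNC sorted cells, and 15451669 to 16972761 in shFgf21 and 14968855 to 19099350 in shNC tumours. Fgf21 had 0 counts in every shFgf21 library, in both kinds of sample, and 0, 2 and 1 counts in shNC tumours 1, 2 and 6, with 0 in all shNC sorted libraries. Such counts are too low to check the knockdown. The label of sorted T cells held only in part. The 12 T cell markers summed to 355 and 429 CPM (counts scaled to an effective library size) in shFgf21 and 296 to 609 CPM in shNC sorted libraries, while 12 macrophage and monocyte markers summed to 17550.2 and 19145 CPM in shFgf21 and 11254.5 to 13728 CPM in shNC sorted libraries. In tumour libraries the T cell list stayed at 0.809 to 1.10 CPM in shFgf21 and 1.06 to 2.02 CPM in shNC, with 5 of 12 markers at 0 in shFgf21 and 8 of 12 in shNC (Cd3e among them in both), and the macrophage list summed to 34.3 to 40.3 CPM in shFgf21 and 33.4 to 48.1 CPM in shNC. Genes abundant in MC38 were also present in sorted libraries, with the mesenchymal list at 12949 to 14551 CPM in shFgf21 and 12224 to 13550 CPM in shNC, against 14584 to 16528 CPM in shFgf21 and 15606 to 17819 CPM in shNC tumours. In such mixed bulk samples, fewer cells of a type and less RNA per cell cannot be told apart.

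Pcyt1a was the member that varied most among the 11 libraries, with a highest level 5.05 times the lowest, and Pcyt1b, its isoenzyme gene, followed at 2.91 times. The other 7 ranged from 1.36 times for Chpt1 to 2.54 times for Pemt. The starts of these 2 isoenzyme genes are shown because they varied most. The range of Pcyt1a includes the sorted libraries on which the set was chosen. Each sequence runs from 250 bases before to 50 bases after the start of the gene in the deposited table (RefSeq, GRCm38.p6, plus strand; chr16:32430671-32430970 for Pcyt1a and chrX:93654613-93654912 for Pcyt1b). Capitals mark matches to 4 motifs, searched on both strands. The GC box is spelled GGGCGG. The motif bound by the factor NF-Y is spelled CCAAT. The E-box searched is spelled CACGTG. The form of a sterol response element is spelled TCACNCCAC.
Pcyt1a: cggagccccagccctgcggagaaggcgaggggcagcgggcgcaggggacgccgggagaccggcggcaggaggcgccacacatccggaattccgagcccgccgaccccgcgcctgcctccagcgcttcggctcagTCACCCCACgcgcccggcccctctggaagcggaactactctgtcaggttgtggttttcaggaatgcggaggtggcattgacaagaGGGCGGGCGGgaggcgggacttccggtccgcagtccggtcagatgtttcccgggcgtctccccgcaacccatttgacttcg
Pcyt1b: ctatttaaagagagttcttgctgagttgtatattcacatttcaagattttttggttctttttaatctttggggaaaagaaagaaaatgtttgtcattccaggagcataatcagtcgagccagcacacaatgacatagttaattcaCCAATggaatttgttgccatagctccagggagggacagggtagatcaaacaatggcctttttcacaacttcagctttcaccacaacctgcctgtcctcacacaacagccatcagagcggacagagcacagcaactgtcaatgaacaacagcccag
The Pcyt1a start held TCACCCCAC, beginning 116 bases before the start site, and 2 GC boxes that overlap each other, and no NF-Y motif. The Pcyt1b start held a single NF-Y motif and no GC box. Of 32851 promoters of this length, 1.24% held the sterol-type motif, 35.7% a GC box, 37.4% an NF-Y motif and 7.15% an E-box. Among the 8 members with an entry, the sterol-type motif occurred at Pcyt1a alone, a GC box at 6, an NF-Y motif at 5 and an E-box at none. These matches are descriptions of letters, and no binding was measured. Pcyt2 was not in the promoter table, and the Pemt entry lies 6301 bases from the start of the gene in the deposited table.

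Levels of different genes were compared per kilobase of annotated exon (GENCODE M21, overlapping exons merged). Over the 11 libraries, the mean was 14.2 CPM per kilobase for Chkb, 12.6 for Cept1, 10.8 for Pcyt2, 8.27 for Chka, 6.88 for Pcyt1a, 6.35 for Etnk1, 4.66 for Pcyt1b, 2.44 for Chpt1 and 1.39 for Pemt. The liver-type route through Pemt thus had the lowest transcript level of the set. The order of neighbours was not fixed in single groups: in shNC tumours Etnk1 averaged 6.45 ± 0.956 and Pcyt1a 5.69 ± 3.41 CPM per kilobase (SD, n = 3), and in shNC sorted cells Pcyt1a averaged 10.1 ± 0.551 and Chka 8.11 ± 0.942 (SD, n = 3).

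**Figure D1:**
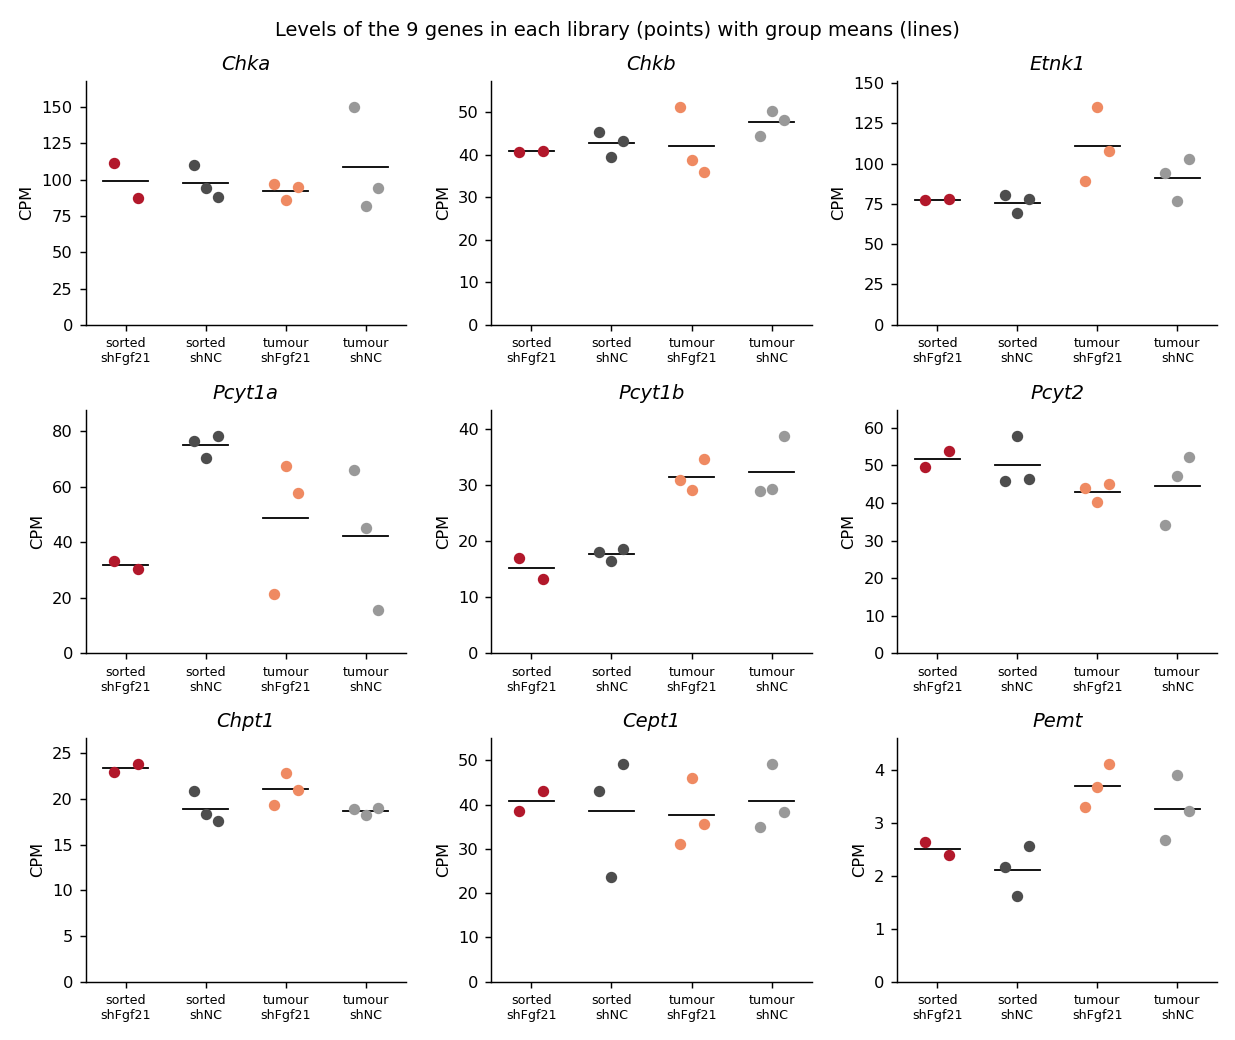
Level of each gene in CPM (y axis, from 0, scaled over the 11 libraries) by group (x axis); each point is a library and each line a group mean. Pcyt1a lies at 30.3 to 33.1 CPM in sorted shFgf21 and 70.4 to 78.3 CPM in sorted shNC libraries and is scattered in tumours, and Pcyt1b is lower in every sorted library than in every tumour library.

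The contrast that led to the set was between sorted cells of shFgf21 and shNC tumours. Pcyt1a stood at 33.1 and 30.3 CPM in sorted shFgf21 libraries, against 76.2, 70.4 and 78.3 CPM in sorted shNC libraries. The groups were far apart and each was tight, with a log2 fold change of -1.26 ± 0.11 (SE), a level 2.40 times lower in shFgf21. Of all 16454 genes, 0.0790% were past an adjusted p of 0.05 in this contrast, and 1 of them, Pcyt1a, is a member, from which nothing is read, since the members were chosen on it. The log2 fold change was -1.33 to -1.19 whichever library was left out. Marker sums moved with the same groups: the macrophage sum above was higher in both shFgf21 libraries than in every shNC library, 6 neutrophil markers summed to 88.8 and 106 CPM in shFgf21 against 159 to 219 CPM in shNC, and 5 epithelial markers to 18.5 and 16.4 CPM in shFgf21 against 30.3 to 43.4 CPM in shNC. The sum of 4 markers of all leukocytes was 1562 and 1711 CPM in shFgf21, against 1573 to 1669 CPM in shNC, and did not separate the groups. Their part in the Pcyt1a difference was not tested.

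The other 8 members lay between -0.24 and 0.28 on the log2 scale in the same contrast, and the median of all 9 was 0.016, against -0.010 over all genes tested. Chpt1, the choline-specific phosphotransferase, was at 23.0 and 23.8 CPM in sorted shFgf21 libraries, against 20.9, 18.4 and 17.6 CPM in sorted shNC libraries. It did not overlap between the groups, which was so for 29.8% of all genes, and its log2 fold change was 0.28 ± 0.13 (SE). Pcyt1b was at 17.0 and 13.3 CPM in sorted shFgf21, against 18.1, 16.4 and 18.5 CPM in sorted shNC libraries, and overlapped. Cept1, the phosphotransferase that uses both head groups, was at 38.6 and 43.0 CPM in sorted shFgf21, against 43.0, 23.8 and 49.1 CPM in sorted shNC libraries. The low value of shNC replicate 2 made its spread within sorted groups larger than that of 97.0% of 10296 genes with at least 10 CPM.

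In tumours, the question was whether these genes differ in MC38 cells that carry the Fgf21 hairpin. None of the 9 passed, against 0.0334% of 14950 genes over the whole table (edgeR quasi-likelihood test, Benjamini-Hochberg adjusted p under 0.05), and none had an unadjusted p under 0.05, against 6.22% of all genes. DESeq2 and limma voom also called 0. The members' log2 fold changes ran from -0.24 to 0.27 with adjusted p of 0.893 to 0.987, and their median was -0.046, against -0.007 over all genes.

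Among the kinases in tumours, Chka, which phosphorylates choline and also ethanolamine, was at 96.8, 85.7 and 95.0 CPM in shFgf21, against 149.9, 81.8 and 94.1 CPM in shNC libraries. Its single high value was shNC replicate 1, and without it the log2 fold change turned from -0.24 to 0.072. Chkb, the second choline kinase, was at 51.2, 38.7 and 36.0 CPM in shFgf21, against 44.5, 50.3 and 48.2 CPM in shNC tumours. The groups overlapped through shFgf21 replicate 1. Etnk1, the ethanolamine kinase, was at 89.3, 135 and 108 CPM in shFgf21, against 94.2, 76.6 and 103 CPM in shNC tumours, a log2 fold change of 0.27 with a 95% interval of -0.15 to 0.69.

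At the CTP coupling step, Pcyt1a was at 21.3, 67.5 and 57.6 CPM in shFgf21 tumours 1, 2 and 3, against 65.8, 45.1 and 15.5 CPM in shNC tumours 1, 2 and 6. A library of each group was low and the groups overlapped almost entirely. The log2 fold change was 0.21 ± 0.53 (SE), with a 95% interval of -0.99 to 1.41. It was -0.18 without shNC replicate 6, -0.093 without shFgf21 replicate 2, 0.57 without shFgf21 replicate 1 and 0.69 without shNC replicate 1, and 1.09 with limma voom and quality weights. It passed in none of these fits. The SD of log2 CPM within tumour groups was 0.992 for Pcyt1a, larger than for 98.7% of the 10296 genes of at least 10 CPM, whose median was 0.211. In sorted groups it was 0.083, larger than for 21.2% of them, with a median of 0.132. That sorted spread comes from the libraries the gene was chosen on. A small spread there helps a gene to pass, so nothing is read from it. Whether the knockdown contrast of Pcyt1a differs between sorted cells and tumours was not tested, because the gene was chosen on the sorted one.

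Pcyt1b was at 30.8, 29.0 and 34.6 CPM in shFgf21, against 28.9, 29.3 and 38.8 CPM in shNC tumours, with a 95% interval of the log2 fold change of -0.43 to 0.34. Pcyt2, the enzyme gene for the same step on phosphoethanolamine, which sets the pace of the ethanolamine branch, was at 44.0, 40.1 and 44.9 CPM in shFgf21, against 34.1, 47.1 and 52.2 CPM in shNC tumours. Its interval was -0.45 to 0.34. Both genes overlapped between the groups.

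Among the last steps in tumours, Chpt1 was at 19.3, 22.9 and 21.0 CPM in shFgf21, against 18.9, 18.2 and 19.0 CPM in shNC libraries. It was the only member whose tumour groups did not overlap, a pattern that 11.8% of all genes had, and its log2 fold change was 0.16 (95% interval -0.17 to 0.50; edgeR adjusted p = 0.931). Cept1 was at 31.0, 46.0 and 35.7 CPM in shFgf21, against 35.0, 49.2 and 38.4 CPM in shNC tumours, and overlapped. Pemt was at 3.30, 3.67 and 4.10 CPM in shFgf21, against 2.67, 3.90 and 3.22 CPM in shNC tumours, with an interval of -0.42 to 0.76.

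**Figure D2:**
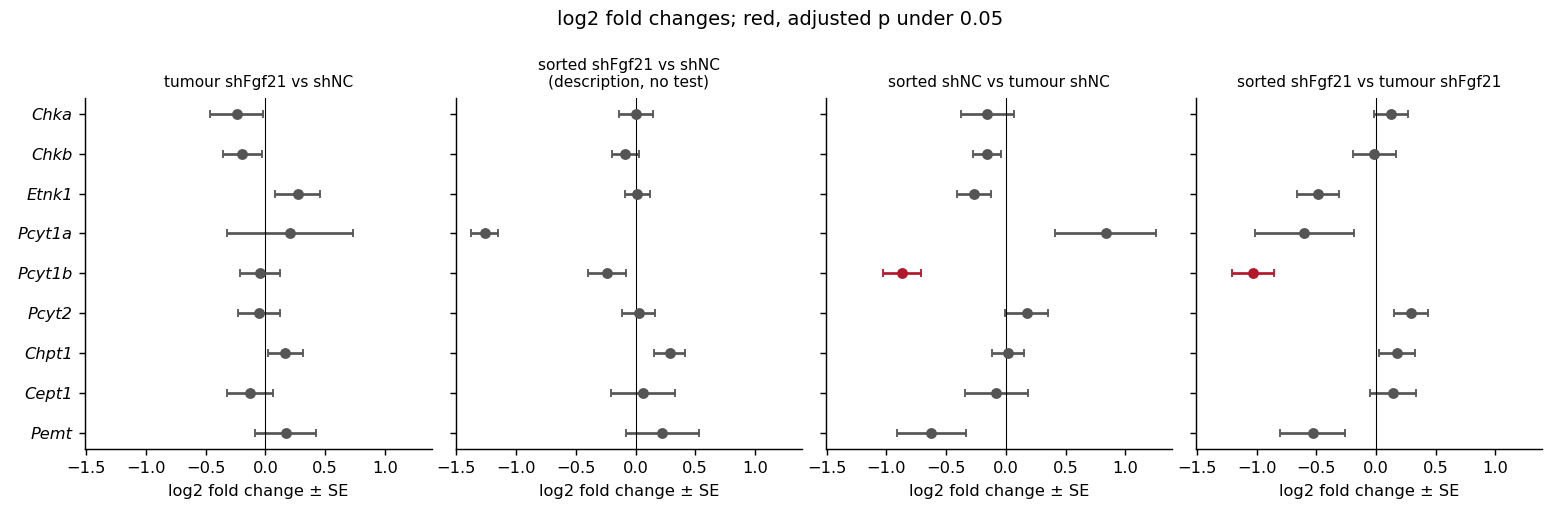
Log2 fold change with its SE (x axis) of each gene (rows) in the 4 comparisons, from separate edgeR fits; red marks an adjusted p under 0.05, and sorted shFgf21 against shNC carries no test. Pcyt1b is red in both comparisons of sorted with tumour libraries, and no gene is red in tumours.

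Sorted cells were then set against tumour libraries, in shNC and, with other libraries, in shFgf21. Some numbers in the sorted titles recur in tumour titles of the same hairpin. Whether these libraries share animals is not given, and the fits treat them as independent. Pcyt1b passed in both comparisons and was the only member to do so. It stood at 17.0 and 13.3 CPM in sorted shFgf21, against 30.8, 29.0 and 34.6 CPM in shFgf21 tumours, which is -1.03 ± 0.18 (SE) on the log2 scale, with an edgeR adjusted p of 0.00274. In shNC it stood at 18.1, 16.4 and 18.5 CPM in sorted cells, against 28.9, 29.3 and 38.8 CPM in tumours, which is -0.87 ± 0.16 (SE), with an adjusted p of 0.00390. Every sorted library was below every tumour library, and the gene passed in each alternative fit of both comparisons. Among these, the fits that leave out a sorted shFgf21 library assume that the lone remaining one varies like the tumours. Of all genes tested, 35.8% passed in shFgf21 and 31.0% in shNC, and those lower in sorted cells were 13.1% of all genes in shFgf21 and 11.9% in shNC, so 1 of 9 members lower is a share near the background. The leukocyte and MC38 marker sums given above move with the kind of sample, and their part in this difference was not tested.

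The levels of Pcyt1a in sorted cells are those the set was chosen on, so its values against tumours are a description. The log2 fold change of sorted over tumour was -0.60 ± 0.41 (SE) in shFgf21 and 0.84 ± 0.43 (SE) in shNC. The different signs restate the contrast between the sorted groups, since the tumour means were 48.8 ± 24.3 CPM in shFgf21 and 42.1 ± 25.3 CPM in shNC (SD, n = 3 each). Sorted shFgf21 libraries lay within the range of shFgf21 tumours, whereas all sorted shNC libraries lay above all shNC tumours. The shFgf21 value was -0.97 without the low shFgf21 tumour replicate 1, and the shNC value was 1.32 without shNC tumour replicate 1.

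Etnk1 was lower in sorted cells without passing, at 77.1 and 78.1 CPM in sorted shFgf21, against 89.3, 135 and 108 CPM in shFgf21 tumours (-0.49 ± 0.18 on the log2 scale, edgeR adjusted p = 0.0670). In shNC it was at 80.5, 69.1 and 77.8 CPM in sorted cells, against 94.2, 76.6 and 103 CPM in tumours (-0.27 ± 0.14, adjusted p = 0.188). It passed in shFgf21 without tumour replicate 1 (-0.64, adjusted p = 0.00710) and in shNC without tumour replicate 2 (-0.37, adjusted p = 0.0472). Pemt was at 2.63 and 2.39 CPM in sorted shFgf21 and 2.16, 1.62 and 2.56 CPM in sorted shNC libraries, below the tumours of the same hairpin in every library, and did not pass (adjusted p = 0.166 in shFgf21 and 0.146 in shNC). With 23 to 81 counts per library its counting error is larger than that of the other members. The groups did not overlap for 5 of the 9 members in shFgf21 (Pcyt1b, Etnk1 and Pemt lower, Pcyt2 and Chpt1 higher in sorted cells), against 61.8% of all genes, and for 3 in shNC (Pcyt1b and Pemt lower, Pcyt1a higher), against 47.2%.

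The remaining 5 members differed less between the kinds of sample. Chka was at 111 and 87.0 CPM in sorted shFgf21 and 110, 94.6 and 87.9 CPM in sorted shNC cells, and Chkb at 40.5 and 41.0 CPM in sorted shFgf21 and 45.3, 39.4 and 43.3 CPM in sorted shNC cells. Pcyt2 was at 49.6 and 53.8 CPM in sorted shFgf21 and 45.9, 57.9 and 46.5 CPM in sorted shNC cells. Their log2 fold changes over tumours, with those of Chpt1 and Cept1, ran from -0.014 to 0.29 in shFgf21 and from -0.16 to 0.17 in shNC, and none passed. The widest 95% intervals among them were -0.69 to 0.53 for Cept1 and -0.67 to 0.36 for Chka, both in shNC. The sign was the same in both comparisons for 6 of the 9 members, the exceptions being Pcyt1a, Chka and Cept1.

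The balance between genes that serve the same step was followed as the ratio of their levels per kilobase within a library, which does not depend on scaling. Pcyt1a to Pcyt1b was 1.41 and 1.64 in sorted shFgf21, against 3.04, 3.11 and 3.06 in sorted shNC libraries. It was 0.500, 1.68 and 1.20 in shFgf21 tumours, against 1.64, 1.11 and 0.289 in shNC tumours. Pcyt1b therefore made up 41.5% and 37.9% of the pair in sorted shFgf21, against 24.7%, 24.3% and 24.6% in sorted shNC libraries, and 66.7%, 37.3% and 45.4% in shFgf21 tumours, against 37.8%, 47.3% and 77.6% in shNC tumours. It was the larger of the pair in shFgf21 tumour 1 and shNC tumour 6. The sorted ratios and shares carry the Pcyt1a levels the set was chosen on, so they restate that contrast and are a description.

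Chka to Chkb averaged 0.620 ± 0.112 in sorted shFgf21 (SD, n = 2), 0.582 ± 0.0561 in sorted shNC, 0.573 ± 0.0960 in shFgf21 tumours and 0.590 ± 0.236 in shNC tumours (SD, n = 3 each), and all 4 groups overlapped. Cept1 exceeded Chpt1 in every library, by 4.65 ± 0.233 times in sorted shFgf21 (SD, n = 2), 5.47 ± 2.01 in sorted shNC, 4.73 ± 0.564 in shFgf21 tumours and 5.85 ± 1.20 in shNC tumours (SD, n = 3 each). Across the branches, Pcyt1a to Pcyt2 was 0.391 and 0.330 in sorted shFgf21, against 0.974, 0.713 and 0.987 in sorted shNC libraries. Those values, too, restate the Pcyt1a contrast the set was chosen on. Chka to Etnk1 was 1.28, 0.747 and 1.04 in shFgf21 tumours, against 1.87, 1.26 and 1.07 in shNC tumours. In tumours, the 5 ratios had p of 0.2 to 1 between the hairpins (exact permutation test, two-sided, n = 3 each; 0.75 to 1 after Benjamini-Hochberg adjustment over the 5), and 0.1 is the smallest p this design allows.

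**Figure D3:**
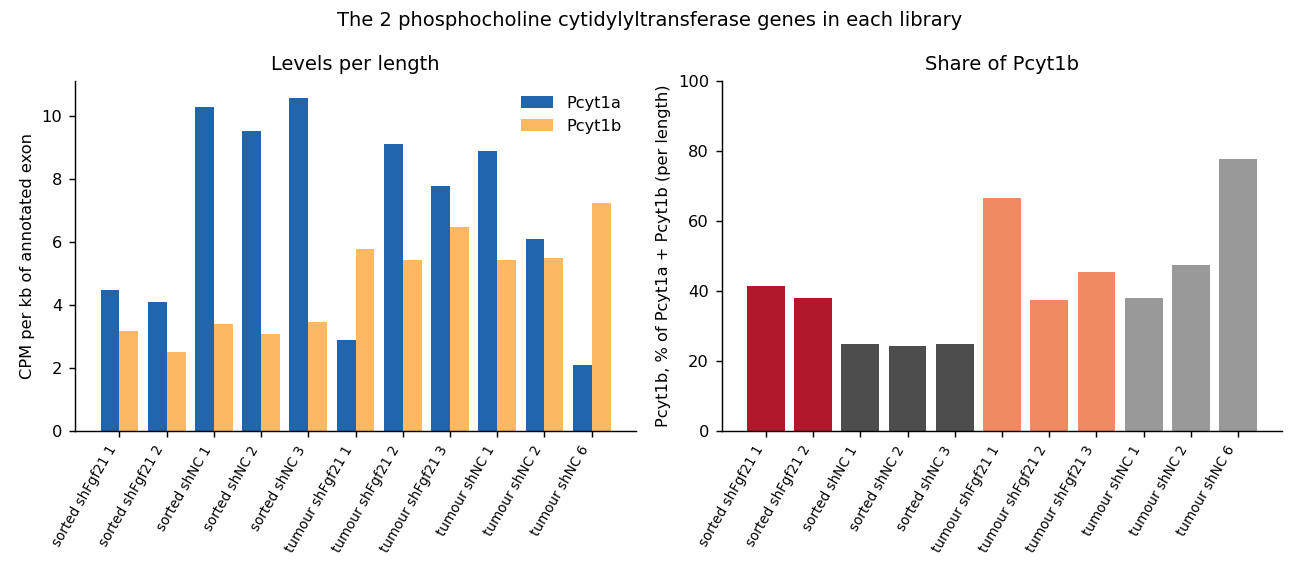
Left, Pcyt1a and Pcyt1b in CPM per kilobase of annotated exon (y axis) in each library (x axis); right, Pcyt1b as a percentage of the pair, with bars coloured by group. The share is 24.3% to 24.7% in sorted shNC libraries and 37.3% to 77.6% over all tumour libraries. Sorted values include the Pcyt1a levels the set was chosen on.

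To place Pcyt1a among other genes, log2 CPM was centred on each gene's mean over the 11 libraries, and 9710 genes of at least 10 CPM were ranked by the root mean square difference from Pcyt1a. Fam107b was nearest (0.496), followed by Dgkh, a diacylglycerol kinase gene (0.543), Ypel5 (0.555), the ribosomal RNA gene CT010467.1 (0.563) and Atp6ap1, a proton pump accessory gene (0.569). Fam107b was at 55.7 and 56.2 CPM in sorted shFgf21, against 150, 145 and 112 CPM in sorted shNC libraries, and at 37.1, 95.9 and 73.8 CPM in shFgf21 tumours, against 117, 26.7 and 34.2 CPM in shNC tumours. It was low in shFgf21 tumour 1 and shNC tumour 6, as Pcyt1a was, and also in shNC tumour 2. Every other member lay farther from Pcyt1a, from 0.764 for Chka to 1.02 for Pcyt1b. Dgkh was at 18.0 and 13.3 CPM in sorted shFgf21, and overlapped with 18.9, 17.6 and 19.6 CPM in sorted shNC libraries. Ypel5 and Atp6ap1 also overlapped between the sorted groups. CT010467.1 was at 48.0 and 52.8 CPM in sorted shFgf21, against 98.2, 85.3 and 79.8 CPM in sorted shNC libraries. The likeness is a description over libraries that share the 2 kinds of sample, and the sorted ones are those Pcyt1a was chosen on.

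The other genes of phospholipid metabolism were followed in 5 lists of 55 genes, 43 of which were tested in each comparison. Between shFgf21 and shNC none of the 43 passed in tumours by edgeR or DESeq2. There 2 had an unadjusted p under 0.05 by edgeR, against 6.22% of all genes. In sorted cells none passed by edgeR and 1 by DESeq2, and 6 had an unadjusted edgeR p under 0.05. For the last 2 counts the share of all genes was not counted, so nothing is read from them. In tumours the genes with the smallest p of each list were Flvcr1, a choline and heme transporter gene (log2 fold change 1.04 ± 0.32), Ptdss1, which makes phosphatidylserine from phosphatidylcholine (0.41 ± 0.18), Lpin1, a phosphatidic acid phosphatase gene (0.35 ± 0.18), Ahcy, which clears the product of methylation (0.21 ± 0.12), and Pnpla6, a lysophospholipase gene (-0.30 ± 0.19). None of them passed (edgeR adjusted p of 0.640, 0.801, 0.841, 0.854 and 0.883). Flvcr1 averaged 30.3 ± 12.5 CPM in shFgf21 and 14.7 ± 2.86 CPM in shNC tumours (SD, n = 3 each), and overlapped.

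Between kinds of sample, several genes of remodelling and turnover of phosphatidylcholine were higher in sorted cells. Of 16 tested, 9 were higher and 0 lower in shFgf21, against 22.7% of all genes called higher. In shNC, 8 were higher and 0 lower, against 19.1% of all genes. The median log2 fold change of the list was 0.51 in shFgf21 and 0.44 in shNC, against 0.013 and -0.018 over all genes tested. In shNC, Pnpla7, a lysophospholipase gene, averaged 54.9 ± 7.78 CPM in sorted cells and 13.8 ± 1.77 CPM in tumours (1.99 ± 0.16 on the log2 scale, edgeR adjusted p = 5.0e-05). Lpcat2 and Lpcat3, which reacylate lysophosphatidylcholine, were higher by 1.68 ± 0.12 and 1.36 ± 0.18 (adjusted p = 2.8e-05 and 6.9e-04), and Pld3, of the phospholipase D family but known as a nuclease of endolysosomes, by 1.82 ± 0.10 (adjusted p = 7.7e-06). The macrophage marker sums given above are also higher in sorted cells, and their part was not tested.

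Over the other lists together, called genes went both ways. In shNC only the ethanolamine and phosphatidylserine list did so by itself, and the rest held only lower ones. Of 14 diacylglycerol supply genes, 2 were higher and 3 lower in shFgf21, against 22.7% and 13.1% of all genes, and 0 were higher and 3 lower in shNC, against 19.1% and 11.9%. The counts of the shorter lists stand against the same shares. In shNC, Gpam, a mitochondrial glycerol-3-phosphate acyltransferase gene, was at -0.90 ± 0.16 and the lipid phosphate phosphatase genes Plpp1 and Plpp3 at -0.81 ± 0.18 and -0.70 ± 0.17 (edgeR adjusted p = 0.00381, 0.0106 and 0.0177). DESeq2 called 5 of the 14 in shNC. The share of all genes called by DESeq2 was not counted, so its counts in these lists have no background. Slc44a1, a choline transporter gene, averaged 134 ± 7.93 CPM in sorted and 215 ± 20.5 CPM in tumour shNC libraries (SD, n = 3 each; -0.68 ± 0.11, adjusted p = 0.00271) and was the only one of 3 transport genes to pass by edgeR in either hairpin, while DESeq2 called 2 of the 3 in shNC. Selenoi, the ethanolaminephosphotransferase gene, was lower at -0.84 ± 0.11 in shNC (adjusted p = 8.6e-04), and Ptdss1 was higher at 0.57 ± 0.13 (adjusted p = 0.0136). Of the 5 genes of the ethanolamine and phosphatidylserine list, which these 2 belong to, 1 was higher and 2 lower in shFgf21. Selenoi was among the lower ones. The higher one was not Ptdss1, which was at 0.030 ± 0.20 there and did not pass (edgeR adjusted p = 0.922). Of 5 genes of methyl donor supply, 1 was higher and 1 lower in shFgf21, and Ahcy alone passed in shNC, at -0.35 ± 0.11 (adjusted p = 0.0445), a call that was lost with median-ratio size factors.

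**Figure D4:**
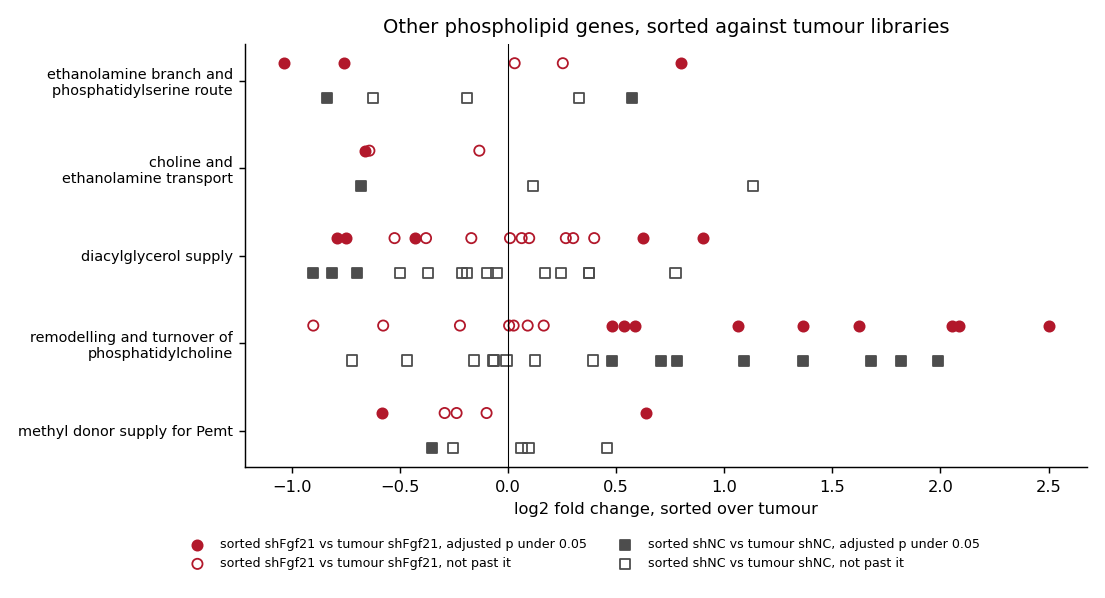
Log2 fold change of sorted over tumour libraries (x axis) for the tested genes of the 5 lists (rows); circles are shFgf21 and squares shNC libraries, filled where the adjusted p is under 0.05. In remodelling and turnover, all filled symbols, 9 in shFgf21 and 8 in shNC, lie right of 0.

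Reads of overlapping genes could affect some members, since the strand of counting is not given. Gm44502, a predicted readthrough transcript on the strand of Chkb, covers 3337 bases of it. It had 0, 159 and 48 counts in shFgf21 tumours, against 192, 127 and 161 in shNC tumours, and shFgf21 tumour 1, with 0, had the highest Chkb level of all libraries. Chkb and Gm44502 together came to 51.2, 48.6 and 38.7 CPM in shFgf21 tumours, against 57.0, 56.4 and 56.3 CPM in shNC tumours. With both counts summed, an alternative chosen after seeing the data, the groups no longer overlapped, a pattern that 11.8% of all genes had. The log2 fold change was then -0.30 (edgeR adjusted p = 0.818), against -0.19 for Chkb alone (adjusted p = 0.920). Dennd2d, on the strand opposite to Cept1, overlaps it by 771 bases. It had 188 and 168 counts in sorted shFgf21 and 220, 278 and 184 in sorted shNC libraries, against 13, 12 and 16 in shFgf21 and 17, 32 and 23 in shNC tumours. Its part in the Cept1 values was not tested. The genes overlapping Pcyt1a, Slc51a and an antisense gene, had at most 7 and 2 counts in any library.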

How the data were processed

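The authors deposited raw counts per gene beside FPKM. Reads were placed on mm10 (the submitters' processing notes); aligner, counter and strandedness: not given in the sources used here. The deposited FPKM values equal counts scaled to the library total and to a fixed length per gene, which differed between libraries by at most 8.4e-04% over 9655 genes. They were not used for levels, since that length is not an exon length: levels per kilobase used merged exons of GENCODE M21 (same build).

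The unchanged counts were fitted with edgeR 4.0.16 (R 4.3.3), separately for each comparison: filterByExpr, TMM scaling, quasi-likelihood F-test and Benjamini-Hochberg adjustment over all genes, at 0.05. SE is the log2 fold change over the square root of F, and intervals are 95%. CPM values use TMM over the 11 libraries. The tests were checked first on simulated counts with 200 changed genes. At a change of 1.5 times, 21.5% were recovered in tumours, and 18.2% in shNC and 22.1% in shFgf21 for sorted against tumour. At 2 times these shares were 80.8%, 82.4% and 66.7%, and at 4 times 100% in each. The simulated spread followed the trend over all genes, so it does not describe a gene as scattered as Pcyt1a in tumours. Alternatives used DESeq2 1.42.0, limma 3.58.1 voom, other scalings and filters, and each library left out. A count of 0 allows up to 3 counts, 0.157 to 0.201 CPM.

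The members and lists were chosen with earlier results of these data known. Named are all members, up to 4 genes per list with the largest change past the threshold at a mean of at least 1 CPM, or in tumours, where none passed, the gene with the smallest p, and the 5 genes nearest to Pcyt1a. Replicate numbers shared by tumour groups were not used to pair the libraries in the main fits, and what they stand for is not given.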

Additional observations from a re-analysis of the deposited data

How the results depend on the processing

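Pcyt1b kept its direction and its call in every alternative of both comparisons of sorted with tumour libraries, and no member was called in tumours in any. In shFgf21, fits with a sorted library left out take the spread from the tumours. In sorted shFgf21 against shNC, a description in which Pcyt1a alone was counted, the count was 0 without a filter on low counts and 0 with all 4 groups in one fit, and 0 to 1 with a library left out (0 without either shFgf21 library, the lone one assumed to vary like shNC). In sorted against tumour shNC the count of 1 became 2 with voom, and 1 to 2 with a library left out; in shFgf21 it became 2 with voom, 2 with all 4 groups in one fit and 1 to 3 with a library left out. The added members were Pcyt1a, which is a description there too, Etnk1 or both. The share of all genes called was not counted in the alternative fits, so nothing is read from these larger counts.

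Reversed signs concerned values that did not pass. With the title number as a replicate block in tumours, where only numbers 1 and 2 occur in both groups and same-numbered libraries deviated together at r = 0.14 and -0.12 across genes, 0 members were called, and the log2 fold change was -0.52 for Pcyt1a, 0.028 for Pcyt1b and 0.059 for Pcyt2. With voom, tumour Pcyt1a was at 1.09. With a library left out, tumour values ran from -0.18 to 0.69 for Pcyt1a, -0.12 to 0.12 for Pcyt1b, -0.21 to 0.087 for Pcyt2, -0.40 to 0.072 for Chka and -0.29 to 0.029 for Cept1. For sorted over tumour they ran in shNC from -0.32 to 0.16 for Chka, -0.054 to 0.075 for Chpt1 and -0.29 to 0.18 for Cept1, and in shFgf21 from -0.060 to 0.29 for Chka and -0.11 to 0.14 for Chkb. Chkb in shFgf21 was also at 0.0034 with a filter at 5 CPM, 0.10 with voom and 0.13 with Gm44502 summed. The cause was not tested. Pemt, at 1.62 to 4.10 CPM, is limited most by depth.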

Other observations

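The deposited FPKM values divide each count by the summed length of all distinct annotated exons, so that bases covered by several overlapping exon versions are counted again. For 97.4% of 9646 well-counted genes the implied length was within 1 base of that sum in GENCODE M21, and for 12.1% it was within 1 base of the merged exon length. The implied length was 1.37 times the merged length in the median gene. For Chkb it was 7174 bases, although the gene spans 3549 bases and its merged exons 3061, and for Pcyt2 it was 7990 bases against a span of 7850. For Pcyt1b, with few exon versions, it was 5592 against 5357 merged bases. Comparisons of one gene between libraries are not touched by this, but the order of genes by deposited FPKM differs from that per merged exon length.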
